A study of Mus musculus with 6 samples.

Results

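The 9 genes described here mark or pattern the primitive streak, the posterior strip of the mouse epiblast through which cells leave to form mesoderm and endoderm. They are the T-box factors T (brachyury) and Tbx6, the bHLH factor Mesp1, the homeobox factors Mixl1, Evx1, Gsc and Lhx1, and the FGF ligands Fgf8 and Fgf17. They were found by their GENCODE M21 symbol in a table of 24191 genes, where all 9 were listed. In the embryo, WNT3, NODAL and BMP4 signals induce the streak, T and Mixl1 are among its early genes, and FGF8 drives cell movement away from it. Mouse embryonic stem cells stand for an earlier stage, the naive epiblast, and streak genes come on in them when self-renewal gives way to differentiation.

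The cells were J1 mouse embryonic stem cells, a male line of 129 origin used widely for gene targeting. The 3 Mettl5 KO libraries came from Mettl5 -/- cells and the 3 WT libraries from wild-type cells. Serum and LIF, a cytokine that keeps such cells self-renewing, were in the medium of both genotypes for the 7 days before RNA was taken, and no differentiation treatment is recorded. METTL5 is an enzyme that methylates an adenosine of 18S ribosomal RNA. The labels do not say how many knockout clones were used, how METTL5 was removed, or whether the replicates were separate cultures, so p-values measure the spread between these libraries, which may be technical. Polyadenylated RNA was sequenced with a stranded kit.

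Mettl5 itself checked the labels. It stood at 3.65, 3.58 and 3.32 TPM in Mettl5 KO cells, against 50.3, 48.6 and 48.7 TPM in WT cells (log2 fold change -3.73, SE 0.0522, limma adjusted p = 5.4e-11). Levels are given on the deposited TPM scale, which gives transcripts as a part of all transcripts after dividing by length and so allows genes to be compared with each other. The TPM values of a library summed to 1019930 to 1022473 in Mettl5 KO and to 969838 to 978167 in WT, so the scale was set by the authors and was not plain TPM. Fold changes are differences of log2(scaled reads + 1), the authors' scaled read estimates with a pseudocount of 1, and they understate the change of low genes. The steps between low values put the depth at about 40440000 to 59640000 fragments per Mettl5 KO library and 38540000 to 52750000 per WT library. Self-renewal markers were present in both genotypes, all 10 of the listed ones being above 1 TPM. Their summed level was 4980 to 5420 TPM in Mettl5 KO and 5450 to 5840 TPM in WT. Dppa5a, at 2729 TPM in Mettl5 KO and 2330 TPM in WT, was the largest part of that sum. Most of the markers were lower in Mettl5 KO, as given below. Of 24183 genes tested, 8137 were higher and 6998 lower in Mettl5 KO at an adjusted p under 0.05 (limma). With equal library totals the same test gave 6309 higher and 9147 lower, and the median log2 fold change of all genes moved to -0.15, against 0.00 on the deposited scale. It was -0.12 with equal upper quartiles, -0.1 after centring each chromosome and -0.05 on the TPM column. Centring subtracted, in each library, the median log2 level of the genes on a chromosome. That is not the median fold change of those genes, and the shifts it gives can differ from it.

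Among the 9 streak genes, T, Mixl1, Evx1, Fgf8 and Fgf17 were higher in Mettl5 KO cells, Tbx6 was lower, and Mesp1, Gsc and Lhx1 did not pass the test. The background is large, since 62.6% of all tested genes were called in either direction, 33.6% as higher and 28.9% as lower. The 6 of 9 called is therefore near the background. 4 of the 9 were higher by at least 1 on the log2 scale, against 11.4% of all tested genes. The members were chosen with earlier results of these data known, which limits this comparison. With the pseudocount of 1, T had the 16th largest and Evx1 the 23rd largest log2 fold change of the 24183. The order of T and Evx1 depended on the setting, Evx1 being at 6.12 and T at 5.82 with a pseudocount of 0.5, and Evx1 at 5.83 and T at 5.62 after centring each chromosome. The median log2 fold change of the 9 was 0.59, against 0.00 over all tested genes. The TPM ranges of the genotypes did not overlap for 8 of the 9, Gsc being the exception, against 68.1% of tested genes. Added up, the 9 genes came to 90.7 to 98.7 TPM in Mettl5 KO libraries and 19.2 to 21.7 TPM in WT libraries, and most of that gap was T. In bulk RNA a larger number of cells with streak transcripts and more such RNA per cell cannot be told apart.

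**Figure D1:**
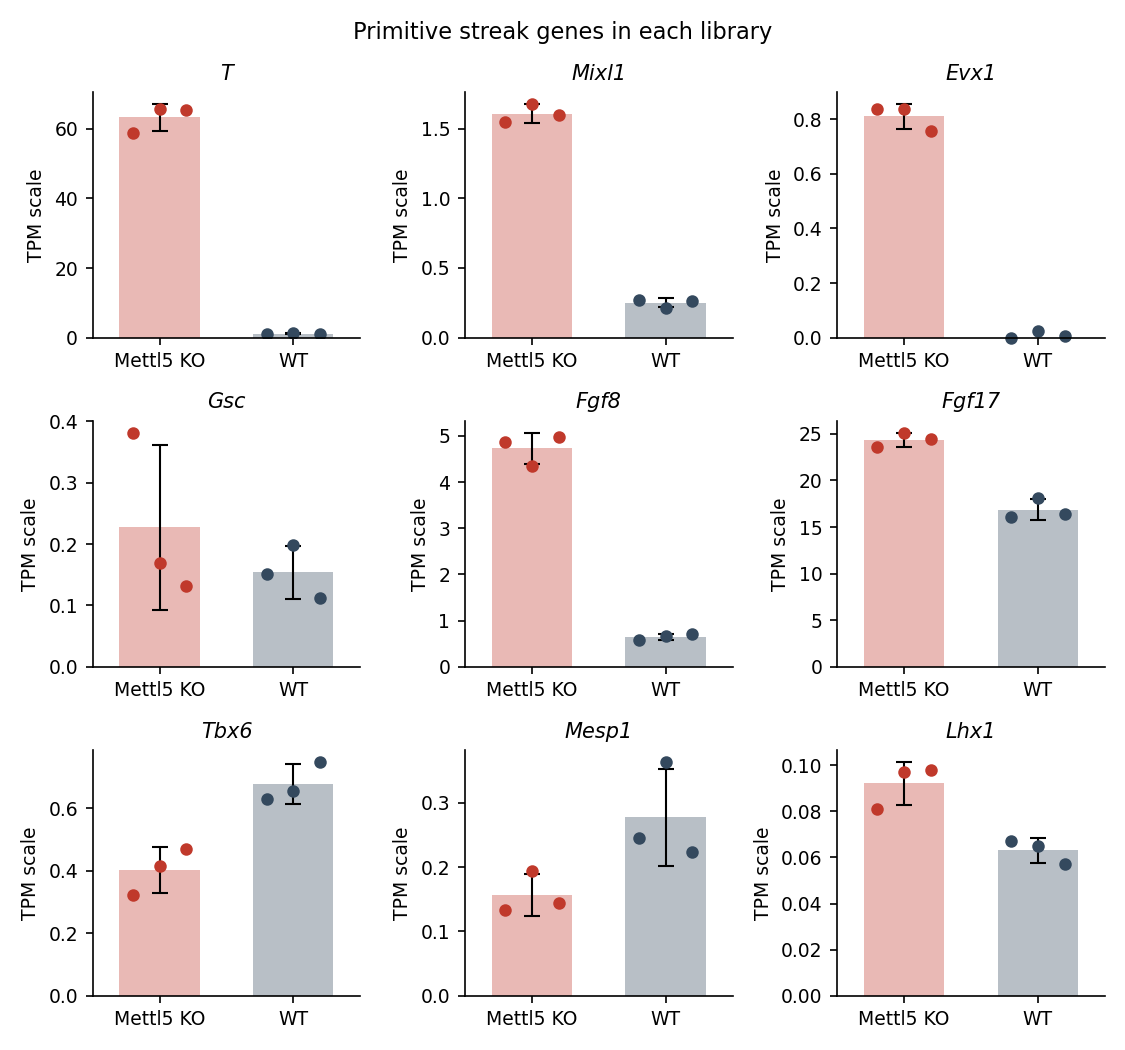
Level of each streak gene on the TPM scale (vertical axes, each from 0 with its own range) in the 3 Mettl5 KO libraries (red) and the 3 WT libraries (grey). Points are libraries, bars are means and error bars are SD. Evx1 in WT is drawn as points alone because it was listed at 0 in replicate 1. The genotypes overlap in the Gsc panel and in no other.

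T is the founding T-box factor, needed in the mouse for posterior mesoderm and the notochord, and a direct target of WNT signalling. It stood at 58.9, 65.8 and 65.4 TPM in Mettl5 KO cells, against 1.17, 1.39 and 0.969 TPM in WT cells. Every Mettl5 KO library was far above every WT library, and the means were 63.4 ± 3.86 TPM in Mettl5 KO and 1.18 ± 0.21 TPM in WT (SD, n = 3 each). The log2 fold change was 5.80 (SE 0.116, 95% interval 5.54 to 6.07, limma adjusted p = 4.66e-10). T moved up the order of all genes, to the 90.6th percentile by TPM in Mettl5 KO, against the 40.9th percentile in WT. About 1692 to 2779 fragments stood behind each Mettl5 KO value and 28.2 to 49.4 behind each WT value. The coefficient of variation was 6.09% in Mettl5 KO and 17.8% in WT, so the WT level was the less precise of the pair.

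T lies on the plus strand of chromosome 17, at 8434423 to 8442496 in mm10 (ENSMUSG00000062327). The 250 bases before its start are shown because T had the highest level of the 9 in Mettl5 KO and is a WNT target. They are from RefSeq on GRCm38.p6, at chr17:8434173-8434422 on the plus strand. The capitals mark TTCAAAG, which is CTTTGAA on the other strand, at position -235 from the start, a match to the letters bound by TCF and LEF factors:
T: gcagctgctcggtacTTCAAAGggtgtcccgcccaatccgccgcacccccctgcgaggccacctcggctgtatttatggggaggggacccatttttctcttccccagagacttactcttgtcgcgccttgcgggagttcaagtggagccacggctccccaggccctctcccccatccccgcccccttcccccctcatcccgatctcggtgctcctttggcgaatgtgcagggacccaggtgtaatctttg
The letters CTTTGAA or CTTTGAT, searched on both strands, were in 8.65% of the 32851 RefSeq windows of 250 bases before to 50 after a start. A match of letters is a description of the sequence and not a site. Of the 9 genes 6 had such a window, namely T, Evx1, Gsc, Tbx6, Mesp1 and Lhx1.

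Tbx6, a T-box factor that turns streak descendants toward paraxial mesoderm and away from neural tissue, went the other way. It stood at 0.322, 0.416 and 0.469 TPM in Mettl5 KO cells, against 0.630, 0.654 and 0.749 TPM in WT cells. All 3 Mettl5 KO libraries were below all 3 WT libraries, at a level where each value rested on 22.3 to 46.9 fragments in Mettl5 KO and 52.6 to 60.9 in WT. The log2 fold change was -0.69 (SE 0.185, 95% interval -1.11 to -0.27, limma adjusted p = 0.00909). The interval includes a change of less than 1.5-fold, and Tbx6 did not pass when tested against that size (adjusted p = 0.816). Mean levels were 0.402 ± 0.0743 TPM in Mettl5 KO and 0.678 ± 0.0633 TPM in WT (SD, n = 3 each).

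Tbx6 lies on the plus strand of chromosome 7, at 126781483 to 126785560 (ENSMUSG00000030699). Its upstream sequence is shown beside that of T as the T-box gene with the opposite change, from RefSeq at chr7:126781233-126781482, plus strand. The capitals mark TATAAA, at position -43 from the start:
Tbx6: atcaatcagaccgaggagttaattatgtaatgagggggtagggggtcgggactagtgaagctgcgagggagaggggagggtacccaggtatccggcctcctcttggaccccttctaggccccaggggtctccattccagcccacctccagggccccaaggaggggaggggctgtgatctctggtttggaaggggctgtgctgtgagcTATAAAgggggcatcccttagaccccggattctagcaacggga
TATAAA, read on the gene's own strand, was in 8.32% of all windows. The window of Gsc also held it, at position -164 from a RefSeq start that lies 94 bases inside the GENCODE gene.

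Mesp1 encodes the bHLH factor that first marks cardiac mesoderm as it leaves the streak. It stood at 0.133, 0.194 and 0.144 TPM in Mettl5 KO cells, against 0.245, 0.364 and 0.224 TPM in WT cells. The genotypes did not overlap, but about 7 to 15 fragments stood behind a Mettl5 KO value and 12 to 24 behind a WT value. The log2 fold change of -0.70 (SE 0.287, 95% interval -1.35 to -0.05) did not pass the adjusted threshold (limma adjusted p = 0.0601). It did pass under each of 4 rescalings, at adjusted p = 0.028 with equal totals, 0.0345 with equal upper quartiles, 0.0352 on the TPM column and 0.0189 after centring each chromosome. Its size was close to the -0.69 of Tbx6, with an SE of 0.287 for Mesp1 and 0.185 for Tbx6.

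Mesp1 lies on the minus strand of chromosome 7, at 79792241 to 79793788 (ENSMUSG00000030544). Of the 6 member windows, it alone held the T-box element written TCACACCT, searched on both strands, which was in 1.28% of all windows. It also held 2 TCF/LEF matches. These stretches are shown as the places where letters of both factor families meet near 1 streak gene, each read on the minus strand from RefSeq, with the match in capitals. Positions are counted from the RefSeq start, 79793590, which lies 198 bases inside the GENCODE gene:
Mesp1 at -73, chr7:79793646-79793674: ccctgctatggTTCAAAGggttcaggccc
Mesp1 at -31, chr7:79793604-79793632: gctcgagccggCTTTGATatgctgatgaa
Mesp1 at +6, chr7:79793568-79793596: aggggcccgctTCACACCTagggctcagg
No match says only that the letters are not in a window.

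Mixl1, the homeobox factor of the streak that governs the balance of mesendoderm and its movement in mouse embryos, was higher in Mettl5 KO cells. It stood at 1.55, 1.68 and 1.60 TPM in Mettl5 KO cells, against 0.270, 0.214 and 0.265 TPM in WT cells. Each Mettl5 KO library was well above each WT library. Means were 1.61 ± 0.0672 TPM in Mettl5 KO and 0.250 ± 0.031 TPM in WT (SD, n = 3 each), a log2 fold change of 2.70 (SE 0.133, 95% interval 2.40 to 3.00, limma adjusted p = 1.39e-07). The gene lies on the minus strand of chromosome 1, at 180693043 to 180697034 (ENSMUSG00000026497). Its change was the 575th largest of all tested genes.

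Evx1, an even-skipped type homeobox factor of the posterior streak, was listed at or near 0 in WT. It stood at 0.836, 0.839 and 0.758 TPM in Mettl5 KO cells, against 0, 0.0249 and 0.00773 TPM in WT cells. In fragments this was about 267 over the Mettl5 KO libraries together and about 3 over the WT libraries. Taking these rounded estimates as counts and correcting for depth, the ratio was 77.8, with an exact 95% interval of 26.3 to 380. That interval covers counting error only. Replicates differed by 2.95 to 7.02 times the sampling variance, which the interval leaves out. The fitted log2 fold change was 5.56 (SE 0.432, 95% interval 4.58 to 6.54, limma adjusted p = 3.1e-06), and its size depended on the pseudocount, being 3.93 with a pseudocount of 5 and 6.12 with 0.5. On the TPM column it was 3.04.

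The position of Evx1 adds a limit. It lies on the plus strand of chromosome 6, at 52313498 to 52318378 (ENSMUSG00000005503), and its 5′ end overlaps the antisense gene Evx1os, at 52308389 to 52314832 on the minus strand. Evx1os stood at 0.806, 0.875 and 0.858 TPM in Mettl5 KO cells, against 0.00551, 0.0808 and 0 TPM in WT cells (log2 fold change 5.07, SE 0.659, limma adjusted p = 0.000111). The kit marks strand, but no source used here gives the strand setting of the quantification. Reads of the stretch that the pair shares, 52313498 to 52314832, therefore cannot be told apart. How many of the reads lay in that stretch is not known. The 250 bases before the Evx1 start are shown because they lie inside Evx1os, from RefSeq at chr6:52313248-52313497 on the plus strand. They held none of the searched letters and so have no capitals:
Evx1: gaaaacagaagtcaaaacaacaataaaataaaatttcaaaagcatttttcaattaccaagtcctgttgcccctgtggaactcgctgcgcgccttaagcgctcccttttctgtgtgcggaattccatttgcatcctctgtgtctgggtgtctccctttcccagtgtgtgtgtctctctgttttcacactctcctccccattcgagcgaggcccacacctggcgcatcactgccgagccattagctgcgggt
Lhx1 was the other member with none of the 3 motifs in its window.

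Gsc, goosecoid, the homeobox gene of the anterior streak and organizer, did not pass the test. It stood at 0.382, 0.169 and 0.132 TPM in Mettl5 KO cells, against 0.151, 0.198 and 0.113 TPM in WT cells. Only Mettl5 KO replicate 1 was above the WT range. The log2 fold change was 0.47 (SE 0.405, 95% interval -0.45 to 1.39, limma adjusted p = 0.34), and without that library it was 0.05 (adjusted p = 0.92). About 10 to 20 fragments stood behind each Mettl5 KO value and 6 to 13 behind each WT value. Gsc lies on the minus strand of chromosome 12, at 104471209 to 104473330 (ENSMUSG00000021095).

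Lhx1, a LIM homeobox factor of the anterior streak and later of the node and kidney, had the lowest level of the 9 in Mettl5 KO cells. It stood at 0.0812, 0.0970 and 0.0981 TPM in Mettl5 KO cells, against 0.0671, 0.0650 and 0.0570 TPM in WT cells. The libraries did not overlap, yet the values rested on about 3.2 to 5.6 fragments in Mettl5 KO and 2.3 to 3.6 in WT. The log2 fold change was 0.48 (SE 0.341, 95% interval -0.29 to 1.25, limma adjusted p = 0.251), so a difference was not detectable at this depth. Lhx1 lies on the minus strand of chromosome 11, at 84518284 to 84525535 (ENSMUSG00000018698).

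Fgf8, the FGF ligand that streak cells need to move away in gastrulating mouse embryos, was higher in Mettl5 KO cells. It stood at 4.88, 4.34 and 4.97 TPM in Mettl5 KO cells, against 0.579, 0.671 and 0.698 TPM in WT cells. Means were 4.73 ± 0.338 TPM in Mettl5 KO and 0.649 ± 0.062 TPM in WT (SD, n = 3 each), and the libraries were far apart. The log2 fold change was 2.89 (SE 0.129, 95% interval 2.60 to 3.18, limma adjusted p = 7.29e-08), close to that of Mixl1. Between 182.9 and 270.5 fragments stood behind each Mettl5 KO value and 26.5 to 31.3 behind each WT value. Fgf8 lies on the minus strand of chromosome 19, at 45736798 to 45742915 (ENSMUSG00000025219).

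Fgf17, a ligand of the same subfamily that is transcribed in the streak and later in the midbrain and hindbrain border, was already abundant in WT. It stood at 23.6, 25.1 and 24.5 TPM in Mettl5 KO cells, against 16.1, 18.2 and 16.4 TPM in WT cells. The libraries did not overlap, and the log2 fold change was 0.59 (SE 0.0506, 95% interval 0.47 to 0.70, limma adjusted p = 6.31e-06). Tested against a 1.5-fold change it did not pass (adjusted p = 1), and after centring each chromosome the log2 fold change was 0.28 (adjusted p = 0.0019). Means were 24.4 ± 0.757 TPM in Mettl5 KO and 16.9 ± 1.11 TPM in WT (SD, n = 3 each). Fgf17 lies on the minus strand of chromosome 14, at 70636203 to 70642268 (ENSMUSG00000022101).

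The ratio of Fgf17 to Fgf8 shows how unequal the changes of these sister ligands were. It was 4.83, 5.77 and 4.92 in Mettl5 KO libraries, against 27.8, 27.0 and 23.5 in WT libraries. The ratio was lower in all 3 Mettl5 KO libraries, by -2.34 on the log2 scale, with an exact two-sided permutation p = 0.1, the smallest that 3 against 3 libraries can give.

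**Figure D2:**
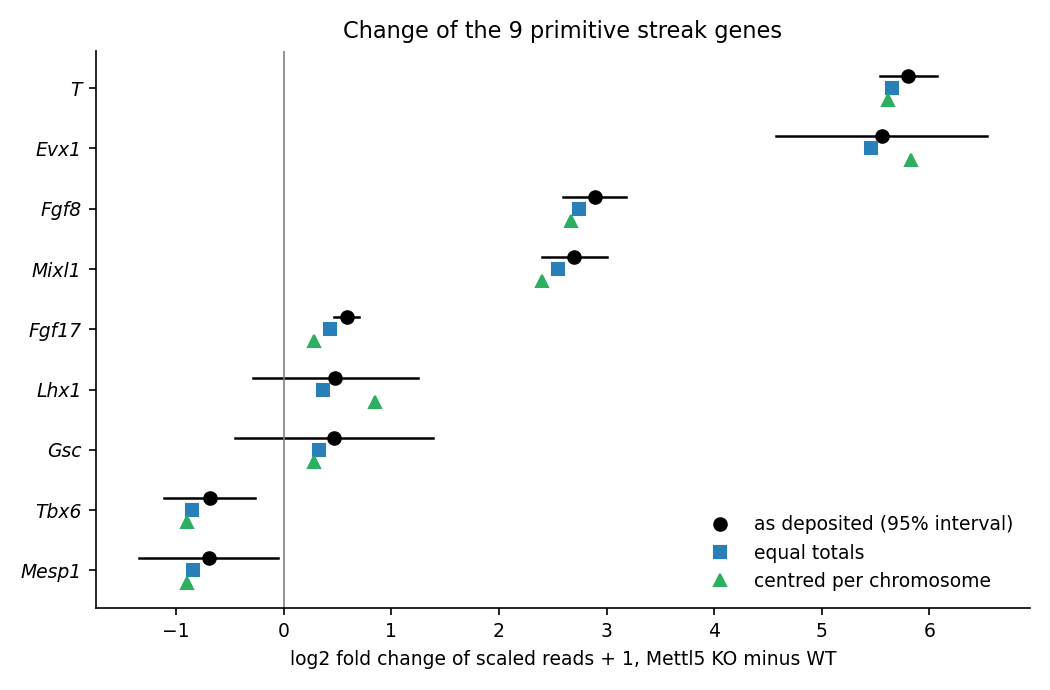
Log2 fold change of scaled reads + 1, Mettl5 KO minus WT (horizontal axis), for the 9 genes. Black points and lines are the fit on the deposited scale with its 95% interval. Blue squares are the values with equal library totals. Green triangles are the values with each chromosome centred on its median level in each library. T and Evx1 lie above 5, Fgf8 and Mixl1 between 2 and 3, and Tbx6 and Mesp1 below 0 on all 3 scales.

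The order of the members differed between genotypes. In Mettl5 KO cells it ran T, Fgf17, Fgf8, Mixl1, Evx1, Tbx6, Gsc, Mesp1 and Lhx1, from the highest TPM to the lowest, and the ranges of Tbx6 and Gsc, and of Gsc and Mesp1, overlapped. In WT cells it ran Fgf17, T, Tbx6, Fgf8, Mesp1, Mixl1, Gsc, Lhx1 and Evx1, where Tbx6 and Fgf8, and Mesp1 and Mixl1, overlapped. T stood above Fgf17 in Mettl5 KO and below it in WT, and Tbx6 stood below Mixl1 and Evx1 in Mettl5 KO and above both in WT. T, Fgf17, Fgf8 and Mixl1 averaged above 1 TPM in Mettl5 KO, and Fgf17 and T did so in WT.

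Within the T-box family, T was the most abundant member in Mettl5 KO and Mga in WT. T made up 51.1%, 53.1% and 52.8% of the summed TPM of the 14 family members in Mettl5 KO libraries, a mean of 52.3% ± 1.1, against 1.71% ± 0.31 in WT (SD, n = 3 each). The family sum was 115 to 124 TPM in Mettl5 KO and 67.0 to 71.2 TPM in WT. Of the 14, 6 were higher, 5 lower and 3 did not pass, with a median log2 fold change of 0.21. The background over all tested genes was 33.6% higher and 28.9% lower. The higher ones included Eomes, the T-box factor of early mesendoderm, at 4.14 ± 0.255 TPM in Mettl5 KO and 0.987 ± 0.0912 TPM in WT, Tbx20, a heart factor, and Tbx15, a factor of limb and skin mesenchyme. Mga, which joins T-box and bHLH domains and acts with MAX, was lower, at 43.6 ± 0.58 TPM in Mettl5 KO and 58.7 ± 2.57 TPM in WT. Tbx3, which supports self-renewal, had 4.69 ± 0.227 TPM in Mettl5 KO and 5.22 ± 0.398 TPM in WT and did not pass on the deposited scale (limma adjusted p = 0.168), though it did with equal totals (0.0039).

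The list of FGF ligands also held non-secreted members of the family, such as Fgf13. Its sum was nearly level, at 83.1 to 84.4 TPM in Mettl5 KO and 87.5 to 90.9 TPM in WT, while the shares moved. Fgf17 was 29.1% ± 0.76 of the sum in Mettl5 KO and 18.9% ± 1.0 in WT, and Fgf8 was 5.65% ± 0.41 in Mettl5 KO and 0.727% ± 0.076 in WT (SD, n = 3 each). Fgf4, the ligand that embryonic stem cells make to prime themselves for differentiation, was 38.7% ± 0.63 in Mettl5 KO and 64.1% ± 0.68 in WT. Of the 18 genes of this list tested, 8 were higher, 5 lower and 5 did not pass, with a median log2 fold change of -0.21. Over all tested genes 33.6% were higher and 28.9% lower. Fgf5, a marker of the primed epiblast, was higher than WT by 3.59 on the log2 scale (SE 0.18, limma adjusted p = 1.65e-07). Its level was 2.65 ± 0.176 TPM in Mettl5 KO and 0.221 ± 0.05 TPM in WT. Fgf13, which encodes a non-secreted member, was higher by 2.05, and Fgf18 by 1.07.

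**Figure D3:**
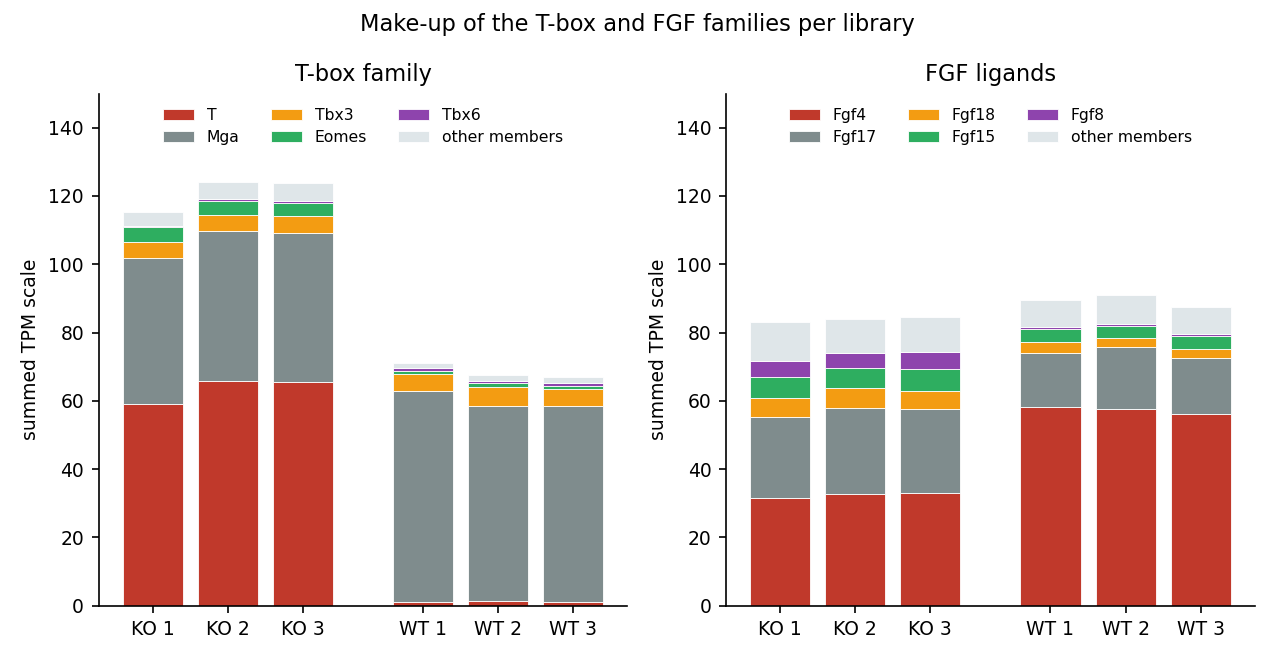
Summed TPM (vertical axes from 0) of the T-box family (left) and the FGF ligand list (right) in each Mettl5 KO library and each WT library, stacked by gene. T fills about the lower 52.3% of the T-box bars of Mettl5 KO and 1.71% of those of WT, and the Fgf4 block is smaller in Mettl5 KO.

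FGF receptors and response genes changed in both directions. Of 7 receptors and co-receptors 3 were higher, 3 lower and 1 did not pass. Fgfr1, the main FGF receptor of the streak, stood at 53.5 ± 5.05 TPM in Mettl5 KO and 27.0 ± 0.402 TPM in WT (log2 fold change 1.03, limma adjusted p = 3.93e-07). Of 12 genes that FGF signalling induces 9 were higher and 3 lower, with a median log2 fold change of 0.43. Over all tested genes 33.6% were higher and 28.9% lower. Etv5, counted as higher, changed by only 0.12 and stood at -0.03 with equal totals. After centring each chromosome Etv5 was called lower at -0.19 (limma adjusted p = 0.00909). Spred2, counted as lower at -0.41, lost its call after that centring (-0.04, limma adjusted p = 0.48). Dusp4, a MAP kinase phosphatase, averaged 35.8 ± 1.08 TPM in Mettl5 KO and 11.9 ± 0.44 TPM in WT (log2 fold change 1.64, limma adjusted p = 1.11e-09). Dusp6, a phosphatase that limits ERK, was higher at 74.9 ± 2.84 TPM in Mettl5 KO and 36.4 ± 1.91 TPM in WT. Etv4, an ETS factor, was lower at 36.4 ± 1.65 TPM in Mettl5 KO and 94.4 ± 4.14 TPM in WT. Il17rd, a membrane inhibitor of FGF signalling, was higher by 0.90, and Spry4, a feedback inhibitor, was lower by -0.66 on the log2 scale.

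Around the 9 genes, 84 others of the streak and its descendants were grouped into 6 lists by role, and 79 of them were tested. The lists were chosen with earlier results of these data known, which limits their comparison with all tested genes. In all, 47 were higher, 21 lower and 11 did not pass, with a median log2 fold change of 0.73. Over all tested genes the median was 0.00, and 33.6% were higher and 28.9% lower. Of the 68 called, 8 lost the call or turned under at least 1 of 4 rescalings.

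Signals that induce the streak came first. Of 21 ligands, co-receptors and effectors 14 were higher, 5 lower and 2 did not pass, with a median of 0.55. Wnt3, the ligand without which no streak forms in the mouse, stood at 10.5, 10.2 and 9.85 TPM in Mettl5 KO cells, against 0.203, 0.186 and 0.331 TPM in WT cells. Its log2 fold change of 5.47 (SE 0.181, limma adjusted p = 1.04e-08) was near that of T. Wnt8a, a WNT ligand of the posterior epiblast, averaged 4.22 ± 0.425 TPM in Mettl5 KO and 0.447 ± 0.0573 TPM in WT (SD, n = 3 each). Nodal averaged 41.3 ± 1.08 TPM in Mettl5 KO and 20.5 ± 0.282 TPM in WT, and Bmp4 67.4 ± 0.199 TPM in Mettl5 KO and 31.8 ± 2.15 TPM in WT. Furin, a protease that cleaves the NODAL precursor, was higher by 1.87 on the log2 scale (adjusted p = 1.89e-09). Tdgf1 (Cripto), the NODAL co-receptor, was lower, at 375.7 ± 3.14 TPM in Mettl5 KO and 539.4 ± 8.76 TPM in WT. Gdf3, a TGF-beta family ligand, was lower by -0.31, and Tcf7, a WNT effector, by -0.37, and both calls were lost after centring each chromosome. Higher calls were lost in the same way. Smad2 was higher by 0.55 and stood at -0.06 after centring (limma adjusted p = 0.268). Smad4 was higher by 0.43 and was called lower at -0.19 after centring (limma adjusted p = 0.0416). Smad2 and Smad4 lie on chromosome 18, where the median log2 fold change was 0.21, so centring moved them by more than that median. Wnt3a, named after its values were seen, was lower by -0.57 (adjusted p = 0.0139), a call that was lost after centring each chromosome (-0.20, adjusted p = 0.4).

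Genes that WNT and NODAL switch on in the streak were mostly higher, 11 of 12, with 1 lower and a median of 1.58. Cdx2, a posterior homeobox factor, stood at 5.25, 5.54 and 5.34 TPM in Mettl5 KO cells, against 0.246, 0.258 and 0.269 TPM in WT cells (log2 fold change 4.39, SE 0.087, limma adjusted p = 4.33e-10). Sp5, a zinc finger factor, averaged 9.84 ± 0.306 TPM in Mettl5 KO and 0.633 ± 0.0839 TPM in WT, and Axin2, a WNT feedback inhibitor, 14.0 ± 0.378 TPM in Mettl5 KO and 4.15 ± 0.0348 TPM in WT. Lefty1, a NODAL inhibitor, was higher by 0.82, and Cdx1, a relative of Cdx2, by 2.52. Notum, an enzyme that inactivates WNT ligands, was the lower one at -0.32, and after centring each chromosome it was 0.05. Lefty2 was higher by 0.41 and lost its call after that centring (0.11, limma adjusted p = 0.0958).

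Of 11 other streak genes 9 were higher, 2 were lower, and the median was 2.20. Nkx1-2, a homeobox gene of the caudal epiblast, averaged 2.75 ± 0.125 TPM in Mettl5 KO and 0.136 ± 0.0344 TPM in WT (log2 fold change 4.35, limma adjusted p = 2.2e-08). Cyp26a1, which degrades retinoic acid at the posterior end, averaged 4.54 ± 0.0494 TPM in Mettl5 KO and 1.02 ± 0.0976 TPM in WT. Apln, the ligand of the apelin receptor, was higher by 2.64 on the log2 scale. The lower pair were both FGF ligands, Fgf3 at -1.76 and Fgf4 at -0.76 on the log2 scale.

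Genes of streak descendants were counted against the same background of 33.6% higher and 28.9% lower, and each list held changes in both directions. Differences between the lists were not tested. Of 12 presomitic genes 4 were higher, 5 lower and 3 did not pass, with a median of -0.49. Msgn1, a bHLH factor that acts with Tbx6 in presomitic mesoderm, averaged 1.70 ± 0.224 TPM in Mettl5 KO and 0.123 ± 0.0395 TPM in WT (log2 fold change 3.53, limma adjusted p = 3.32e-06), opposite to Tbx6. Mesp2, the neighbour and paralogue of Mesp1 that sets segment borders, was lower, at 0.726 ± 0.0862 TPM in Mettl5 KO and 1.52 ± 0.0421 TPM in WT (log2 fold change -1.01, adjusted p = 4.65e-05). Tcf15, a bHLH factor of paraxial mesoderm, was lower by -1.02, and Meox1, a somite homeobox gene, by -2.41. Lfng, a glycosyltransferase that modifies Notch in the segmentation clock, was higher at 12.3 ± 0.62 TPM in Mettl5 KO and 5.79 ± 0.382 TPM in WT, and Pax3, a paired box factor, was higher by 3.46. Dll1, a Notch ligand, had 1.66 ± 0.044 TPM in Mettl5 KO and 2.12 ± 0.164 TPM in WT and did not pass (adjusted p = 0.103), though it did with equal totals (0.0188). Dll3, its relative, had 3.23 ± 0.292 TPM in Mettl5 KO and 3.71 ± 0.111 TPM in WT and did not pass either (adjusted p = 0.264), and with equal totals it did (0.0298).

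Of 13 nascent and cardiac mesoderm genes 7 were higher, 4 lower and 2 did not pass, with a median of 1.81. Kdr, the VEGF receptor of early blood and vessel precursors, averaged 1.09 ± 0.0627 TPM in Mettl5 KO and 0.227 ± 0.0359 TPM in WT. Hand1 averaged 6.63 ± 0.297 TPM in Mettl5 KO and 1.97 ± 0.305 TPM in WT, and Zeb2, a zinc finger factor, 7.44 ± 1.14 TPM in Mettl5 KO and 0.843 ± 0.151 TPM in WT. Tbx20 was higher by 3.56. Etv2, a factor of blood and vessel precursors, did not pass (log2 fold change 0.18, adjusted p = 0.111), and after centring each chromosome it was -0.02. The lower ones were Myl7, an atrial myosin light chain, at -1.58, Gata4 at -1.16, Gata6 at -1.86 and Pdgfra at -1.02 on the log2 scale.

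Of 10 anterior streak and organizer genes, the group to which Gsc and Lhx1 belong by role, 2 were higher, 4 lower and 4 did not pass, with a median of -0.17. Nog, a BMP antagonist, was higher at 4.61 ± 0.281 TPM in Mettl5 KO and 0.297 ± 0.0661 TPM in WT. The other higher one was Lhx5, at 0.117 ± 0.0115 TPM in Mettl5 KO and 0.0704 ± 0.00992 TPM in WT (limma adjusted p = 0.0277). The Lhx5 call was lost with equal totals (0.0643), equal upper quartiles (0.0551) and after centring each chromosome (0.123). Sox17, a definitive and extraembryonic endoderm factor, was lower at 0.213 ± 0.0314 TPM in Mettl5 KO and 1.90 ± 0.101 TPM in WT (log2 fold change -3.04, limma adjusted p = 2.39e-07). Also lower were Hhex at -0.69, Hesx1 at -1.46 and Otx2 at -0.22, homeobox factors of the anterior endoderm and forebrain. Ldb1, the cofactor that LHX1 binds, had 99.4 ± 0.483 TPM in Mettl5 KO and 101.6 ± 1.97 TPM in WT and did not pass on the deposited scale (adjusted p = 0.48), while with equal totals it was called lower at -0.14.

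**Figure D4:**
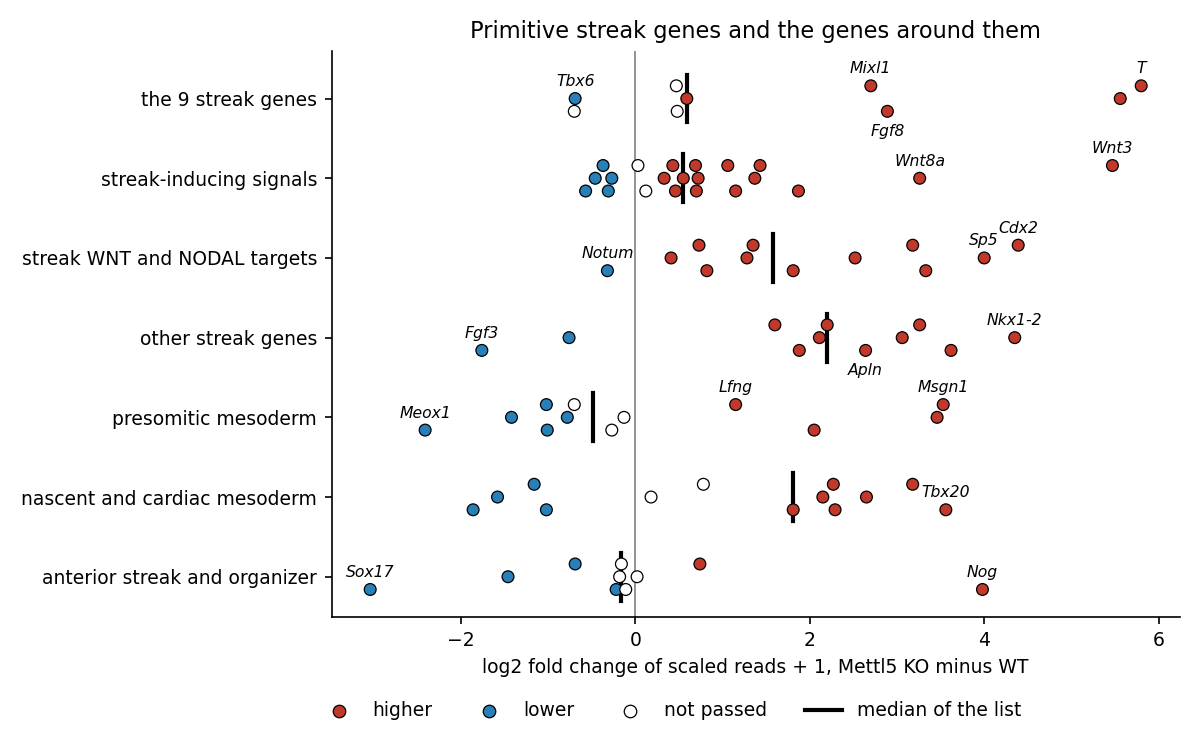
Log2 fold change of scaled reads + 1, Mettl5 KO minus WT (horizontal axis), for each tested gene of the 9 and of 6 related lists (vertical axis). Red points were higher, blue points lower and open points did not pass at an adjusted p under 0.05, and black ticks are list medians. The medians lie at 1.58 for WNT and NODAL targets, 2.20 for other streak genes and 1.81 for nascent and cardiac mesoderm, and at -0.49 and -0.17 for the presomitic and organizer lists.

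Markers of other cell types moved too, and their part in these results was not tested. The background for the counts below is 33.6% higher and 28.9% lower over all tested genes. Of 12 fibroblast markers 11 were higher and 1 lower, with a summed level of 39.4 to 40.4 TPM in Mettl5 KO and 15.0 to 17.7 TPM in WT. Of 9 trophoblast markers, of which Cdx2, Eomes and Hand1 also stand in the streak lists, 8 were higher and 1 did not pass, with 55.9 to 57.3 TPM in Mettl5 KO and 16.7 to 18.3 TPM in WT. Of 8 extraembryonic endoderm markers 7 were lower and 1 higher, with 3.9 to 4.12 TPM in Mettl5 KO and 17.0 to 17.6 TPM in WT. Gata4, Gata6 and Sox17, among the lower ones, also stand in the streak lists. Of 9 neuroectoderm markers 4 were higher, 2 lower and 3 did not pass, with 77.4 to 79.1 TPM in Mettl5 KO and 89.2 to 90.1 TPM in WT. No marker in the table was at 0 in all libraries of a genotype. Of the 10 self-renewal markers 7 were lower, 2 higher and 1 did not pass, with a median log2 fold change of -0.49. The largest decrease was that of Zfp42, at 237.5 TPM in Mettl5 KO and 583.5 TPM in WT. Klf4 stood at 15.3 TPM in Mettl5 KO and 33.2 TPM in WT, and Esrrb at 51.8 and 98.5 TPM. Pou5f1, also called lower, changed by only -0.09 on the log2 scale (limma adjusted p = 0.0343). Nanog, at 156.6 TPM in Mettl5 KO and 158.1 TPM in WT, did not pass on the deposited scale (limma adjusted p = 0.158). With equal totals Nanog was called lower at -0.12, and after centring each chromosome it was called higher at 0.31. The higher ones were Dppa5a at 0.31 and Sall4 at 0.47 on the log2 scale. Tdgf1, among the lower ones, also stands in the streak lists.

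The genes whose values ran most like those of a member were found by distance over the 6 libraries, each gene taken as log2(scaled reads + 1) minus its own WT mean, among 12702 genes averaging at least 1 TPM in a genotype. The nearest to T were Sprr2a3 (distance 0.467), Thbs1 (0.518), Acta1, Edn1 and Tagln (0.683). Thbs1, which encodes a matrix glycoprotein, had nearly the levels of T, with means of 63.5 TPM in Mettl5 KO and 1.02 TPM in WT. The nearest to Fgf8 were Fndc3c1 (0.152), Samd4, Prrx2, Lhfp and Gsap (0.223). The nearest to Tbx6 were Scarna17 (0.111), Ppargc1b, AC154442.1, Rsad1 and Gpr19 (0.195). None of these genes was on the 6 streak lists.

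Chromosomes and neighbours were compared as a check on regional differences, chosen after the members' values were seen. Median log2 fold changes were 0.06 on chromosome 17, which carries T, 0.07 on chromosome 1, 0.03 on chromosome 7, 0.09 on chromosomes 14 and 19, and 0.10 on chromosome 12. They were -0.29 on chromosome 6, which carries Evx1, and -0.41 on chromosome 11, which carries Lhx1 and Wnt3. Chromosome 8, which carries Zfp42, Fgfr1 and Dusp4, had -0.38, and chromosome 18, which carries Smad2 and Smad4, had 0.21. The lower calls named above as lost after centring lay on chromosome 11 (Tcf7, Notum, Wnt3a and Spred2) and chromosome 6 (Gdf3). The higher calls named as lost in that way lay on other chromosomes. Of the 18 nearest tested protein-coding genes on either side of the members 8 were higher, 8 lower and 2 did not pass. Over all tested genes 62.6% were called in either direction. T was flanked by T2, 10.9 kb away, at 0.221 ± 0.054 TPM in Mettl5 KO and 0.131 ± 0.0242 TPM in WT, and by Pde10a, a phosphodiesterase gene 82.9 kb away, at 1.63 ± 0.122 TPM in Mettl5 KO and 0.216 ± 0.0473 TPM in WT (log2 fold change 2.95, limma adjusted p = 2.4e-07). The T2 call (0.75, adjusted p = 0.0355) was lost with equal totals (0.0758). Fgf17 had Dmtn 0.155 kb away, which was higher by 0.56, near the 0.59 of Fgf17 itself. Npm3, 4.82 kb from Fgf8, was lower by -0.20, and Lin9, 2.35 kb from Mixl1, was higher by 0.32. Mesp2, 16.9 kb from Mesp1, was lower by -1.01, and Wdr93, 6.29 kb away on the other side, was lower by -1.02.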

How the data were processed

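Polyadenylated RNA of 3 Mettl5 KO and 3 WT embryonic stem cell libraries was quantified by the authors with kallisto and sleuth on mm10, per the submitters' processing notes. No source used here gives the versions, the annotation or the strand setting. The table of 24191 genes deposited by the authors holds normalized signal of 2 kinds, scaled reads and a TPM scale. Neither is a count: 29.7% to 32.8% of low values lay within 0.02 of whole multiples of a library's step, so no count test was run, and depth was read from those steps. GENCODE M21 named 23829 of the gene IDs and 362 had no name.

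Log2(scaled reads + 1) of the 24183 genes averaging at least 1 scaled read was fitted with limma 3.58.1 (trend) in R 4.3.3, without a block, and p-values were Benjamini-Hochberg adjusted over all of them. The fit was also run on simulated counts with few changed genes and a fixed spread between replicates. Most genes were called in the real data, so that run does not measure the error rate here. Replicates differed by 2.95 to 7.02 times the sampling variance per gene, so none was merged. The members and lists were chosen with earlier results of these data known. Genes were named by a fixed rule: the 9 members, up to 5 called genes per list by smallest p, up to 3 of the most abundant not called or opposite, and the 5 genes most like T, Fgf8 and Tbx6. Further names (Wnt3a, Smad2, Smad4, Lefty2, Lhx5, Etv5, Spred2, Mesp2, Pdgfra, Gata6, Pou5f1 and the neighbours) were added after values were seen. Promoter windows came from RefSeq (GRCm38.p6). Alternatives covered scaling, the TPM column (pseudocount 0.1), pseudocounts of 5 and 0.5, filters, chromosome centring, a test against 1.5-fold, a replicate block and leaving out each library.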

Additional observations from a re-analysis of the deposited data

How the results depend on the processing

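The direction of all 9 members held under every alternative run, and Lhx1 dropped out under the filter of at least 10 scaled reads. Log2 fold changes ranged over 5.62 to 5.93 for T, 2.67 to 2.95 for Fgf8, 0.28 to 0.64 for Fgf17 and -0.9 to -0.55 for Tbx6. The 5 higher calls held except in the test against a 1.5-fold change, which kept 4. Members called lower were 2 with equal totals, equal upper quartiles, the TPM column or centring per chromosome, through Mesp1, and the cause was not tested. They were 0 in the limma test against 1.5-fold, where 0 members were lower at an unadjusted p under 0.05. That test called 2869 genes higher and 2178 lower over the whole table, and 37 higher and 11 lower on the 6 streak lists, since it asks for a larger difference. Calls that were higher made up 53.8% of all calls on the deposited scale, 40.8% with equal totals, 43.4% with equal upper quartiles, 44.2% after centring and 48.4% on the TPM column. Leaving out each library gave 7537 to 7946 genes higher and 6371 to 6638 lower, with 5 members higher and 1 lower each time. The Fgf17 to Fgf8 log2 ratio ranged over -2.42 to -2.29 with a library left out, and was -2.34 with scaled reads, an alternative chosen after seeing the data. The few fragments behind Gsc, Mesp1 and Lhx1 limit their comparison.

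Same-numbered libraries deviated together with correlations of 0.007, 0.011 and 0.032, so the numbers were not taken as pairs. With the replicate number as a block, 8183 genes were higher and 6927 lower, and 5 members were higher and 1 lower.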
